A study of Rattus norvegicus with 17 samples.

Results

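The circadian clock genes examined here are 10 genes, Arntl (also called Bmal1), Clock, Npas2, Per1, Per2, Per3, Cry1, Cry2, Dbp and Tef, out of 13278 gene symbols on an Illumina RatRef-12 expression array of 22226 probes. They were taken by symbol, and each had 1 probe. RNA came from liver and adipose tissue of male rats aged 7 months. Diabetes of type 2 arises without any intervention in the Goto-Kakizaki (GK) strain, which is not obese, and the Brown-Norway (BN) strain, whose blood glucose is normal, was set against it; no treatment separated the groups, and both strains lived under the same light and dark cycle. There were 3 GK and 5 BN liver arrays and 4 GK and 5 BN adipose tissue arrays, each from 1 animal, and 8 of the 9 rats gave both tissues. The strains differ across their whole genomes, so strain and diabetes cannot be told apart. The time of day at which tissue was taken is not given in the sources used here.

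The clock is a feedback loop of transcription. Arntl protein pairs with Clock or its relative Npas2 and switches on genes through E-box sequences, among them the Per and Cry genes, whose proteins return to the nucleus and hold that pair back. Dbp and Tef encode related transcription factors that bind D-box sequences and carry the rhythm on to output genes. In rodent liver and fat, Arntl messenger RNA runs nearly opposite in phase to Dbp, Per1 and Per2, so that a tissue sampled once shows a level that depends on the hour as well as on the animal. Fewer cells of a type and less RNA per cell cannot be told apart in such bulk samples.

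Sequence upstream of the start site was held for 9 of the 10 genes in the RefSeq annotation of build GRCr8, as windows of 300 bases (250 before the start and 50 after). Searched on both strands, 1 gene held the canonical E-box CACGTG (Tef), 1 held a D-box of the form TTATGTAA or TTACGTAA (Per2) and 1 held AGGTCA, the core of the element bound by Rev-erb and Ror receptors (Arntl). Of 33469 such windows of the annotation, 6.42% held the E-box, 1.01% the D-box and 16.2% AGGTCA. The windows of Per1 (chr10:54304126-54304425) and Tef lie inside the annotated genes, which begin at 54299002 and 115197180. The windows of Npas2 (chr9:48959315-48959614, plus strand) and Per3 (chr5:166777751-166778050, minus strand) lie inside the genes too. Npas2 begins at 48959225, and Per3, read along the minus strand, at 166778243. Sequence before those positions was therefore not searched for Per1, Tef, Npas2 and Per3. The 3 windows with a match are printed because the results turn on these genes, 5′ to 3′ along the gene's strand with the matched letters in capitals. The match starts at -15 from the start site in Arntl (chr1:176766078-176766377, plus strand), at -192 in Per2 (chr9:99496944-99497243, minus strand) and at -198 in Tef (chr7:115206577-115206876, plus strand). No match overlapped another.
Arntl: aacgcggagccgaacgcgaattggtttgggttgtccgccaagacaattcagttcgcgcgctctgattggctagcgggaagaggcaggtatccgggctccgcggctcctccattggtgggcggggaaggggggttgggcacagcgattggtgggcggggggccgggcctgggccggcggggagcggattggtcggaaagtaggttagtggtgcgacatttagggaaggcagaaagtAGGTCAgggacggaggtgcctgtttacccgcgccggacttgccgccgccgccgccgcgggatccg
Per2: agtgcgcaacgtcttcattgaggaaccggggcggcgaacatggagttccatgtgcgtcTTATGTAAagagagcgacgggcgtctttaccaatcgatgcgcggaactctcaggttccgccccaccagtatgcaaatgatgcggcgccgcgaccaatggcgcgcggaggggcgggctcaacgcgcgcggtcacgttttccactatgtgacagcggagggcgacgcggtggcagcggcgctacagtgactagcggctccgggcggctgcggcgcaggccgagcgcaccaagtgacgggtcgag
Tef: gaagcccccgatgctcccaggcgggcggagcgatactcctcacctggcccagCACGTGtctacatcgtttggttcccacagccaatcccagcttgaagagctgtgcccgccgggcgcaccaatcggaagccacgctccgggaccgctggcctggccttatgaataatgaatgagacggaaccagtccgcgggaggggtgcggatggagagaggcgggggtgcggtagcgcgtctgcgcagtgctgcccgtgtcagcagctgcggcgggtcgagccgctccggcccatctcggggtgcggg

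Of the 10 genes, 6 exceeded background throughout at least 1 of the 4 groups. A detection score above 0.99, which places a probe above the negative control probes, was taken as above background. Per1, Per2, Cry1 and Tef passed on all 17 arrays, Dbp on 16 and Arntl on 14. Clock and Cry2 passed on 0 of 17 arrays, Per3 on 0 and Npas2 on 1, so for these 4 genes no level and no fold is given. The probe signal of a gene cannot be set against that of another gene, and a gene whose probe is dim may still be expressed.

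In GK liver replicate 2, all 10 kidney marker genes measured were above background and their summed signal was 176781, against 840 to 875 in the other GK livers and 631 to 1398 in BN livers. The hepatocyte marker sum of that array was 19064, against 219943 and 395340 in the other GK livers and 353819 to 448333 in BN livers. Fitted liver differences, and liver correlations, are therefore given with and without this array. In adipose tissue, 9 skeletal muscle markers summed to 61877 in GK adipose replicate 2 and to at most 3506 in the other GK arrays, against 145 to 7788 in BN arrays. The 7 adipocyte markers summed to 54354 to 83699 in GK and 55728 to 91488 in BN adipose tissue. Of 10 hepatocyte markers, 7 were above background in GK adipose replicate 1. In each other GK adipose array 1 was, and in BN adipose arrays 1 to 3 were. Their summed signal in GK adipose replicate 1 was 10894, within the 6267 to 14905 of BN adipose arrays. Macrophage markers (3 genes) ranged over 2549 to 3769 in GK and 2730 to 4598 in BN adipose tissue, and 3 B cell and lymph node markers stayed at or below 449 on every array. The part of these markers in the clock gene values was not tested.

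Arntl, the activator of the loop, had the largest SD of the measured members in BN liver. On the log2 scale, after variance stabilisation across the 17 arrays, Arntl was 7.46, 6.70 and 6.96 in GK liver replicates 1 to 3. In BN liver replicates 1 to 5 it was 4.05, 6.54, 7.42, 6.47 and 5.42, and replicates 1 and 5 were not above background. GK liver replicate 1 lay just above the highest BN liver and the other GK livers within the BN range. In GK adipose replicates 1 to 4, Arntl was 7.10, 6.69, 7.12 and 6.76. In BN adipose replicates 1 to 5 it was 5.25, 7.04, 7.17, 6.30 and 5.73, with replicate 1 not above background. BN replicates 1 and 5 were the lowest in both tissues. The SD was 0.38 in GK liver (n = 3) and 1.29 in BN liver (n = 5), and 0.22 in GK adipose tissue (n = 4) and 0.83 in BN adipose tissue (n = 5); the difference between these spreads was not tested.

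Per1 and Per2 encode the proteins that close the loop. Per1 was 8.48, 8.02 and 9.43 in GK livers, against 9.57, 7.53, 8.94, 8.94 and 10.57 in BN livers. In adipose tissue Per1 was 10.20, 9.94, 8.33 and 10.17 in GK rats, against 10.37, 9.08, 9.84, 9.71 and 10.63 in BN rats. BN replicate 2 was the lowest and BN replicate 5 the highest of the BN rats in both tissues. Per2 was 9.73, 9.64 and 9.96 in GK livers, against 9.77, 9.35, 8.61, 8.96 and 9.73 in BN livers. It was 9.60, 9.33, 8.35 and 10.70 in GK adipose tissue, against 10.57, 8.50, 9.31, 9.49 and 10.44 in BN adipose tissue. The GK and BN values overlapped for both genes in both tissues.

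Cry1, which encodes the partner of the Per proteins, varied in GK liver mainly through replicates 2 and 3. It was 8.25, 7.29 and 9.47 in GK livers, against 7.88 to 8.39 in the 5 BN livers, with a median of 8.09. In adipose tissue Cry1 lay between 7.90 and 8.69 in GK rats, against 7.28 to 8.42 in BN rats. The highest Cry1 value of all 17 arrays was that of GK liver replicate 3.

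Dbp, an output factor with a strong daily swing in rodent liver, was 3.06, 5.64 and 6.12 in GK livers, against 6.48, 6.30, 5.80, 6.39 and 6.04 in BN livers. The value of 3.06 belongs to GK liver replicate 1, where the detection score was 0.410 and the signal lay 3.0 units under the mean of the negative controls; the same rat had a Dbp of 6.71 in adipose tissue. The hepatocyte marker sum of this liver array was 219943, and kidney markers were at 840. In adipose tissue Dbp was 6.49, 6.71, 6.70 and 6.58 in GK rats, against 6.44, 6.99, 6.39, 6.32 and 5.94 in BN rats.

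Tef, the relative of Dbp, had an SD of at most 0.29 in each group. It was 6.20, 6.23 and 6.46 in GK livers, against 6.87, 6.46, 6.26, 6.91 and 6.84 in BN livers. In adipose tissue it was 7.36, 7.25, 6.90 and 7.16 in GK rats, against 8.06, 7.52, 7.42, 7.43 and 7.81 in BN rats. Every GK adipose value lay below every BN adipose value, and every adipose value lay above every liver value of the same strain. The error of a single array from its beads was at most 0.0361 on the log2 scale for Per1, Per2, Cry1 and Tef, below the SD between rats in every group.

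**Figure D1:**
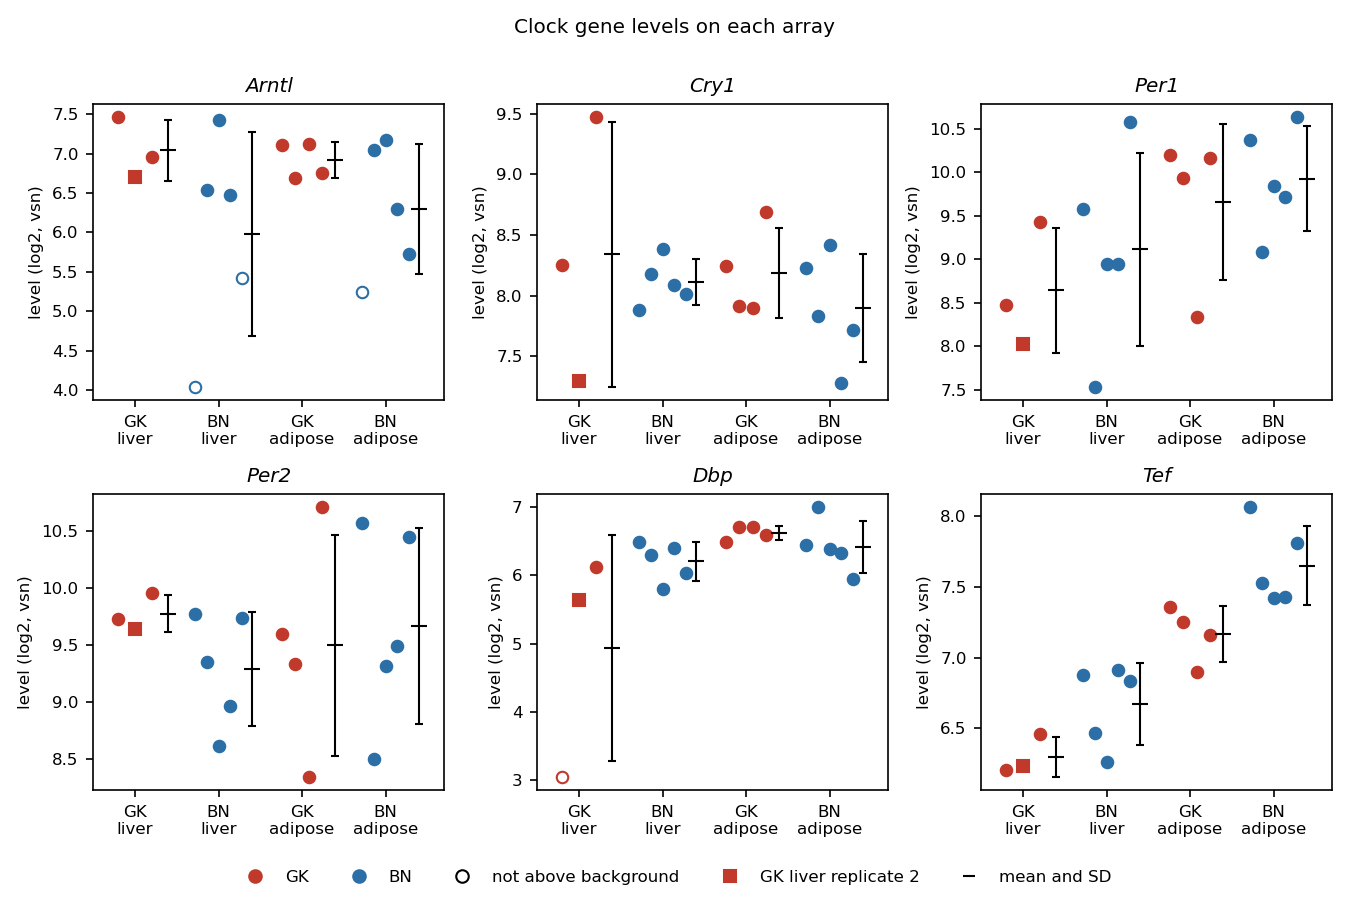
Level (log2) of the 6 measured clock genes on each array, with GK in red and BN in blue, in liver (left) and adipose tissue (right); open circles were not above background, the square is GK liver replicate 2, and bars are the mean and SD of the group. Tef in adipose tissue is the only panel in which GK and BN do not overlap, with 6.90 to 7.36 in GK and 7.42 to 8.06 in BN rats.

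The first comparison asked which genes differ between the diabetic and the normoglycaemic strain in adipose tissue. By limma with Benjamini-Hochberg adjustment over all probes, 0 of the 10 clock genes passed an adjusted p of 0.05, where 2.65% of all probes did; 2 of the 10 had an unadjusted p under 0.05, against 14.7% of all probes. Tef was lower in GK, with a mean of 7.17 ± 0.20 in GK and 7.65 ± 0.28 in BN (SD, n = 4 and 5). The log2 difference was -0.48 (standard error 0.19, 95% interval -0.93 to -0.04), a fold of 1.40, with an unadjusted p of 0.0283 and an adjusted p of 0.264 by limma, so it did not pass. Of all probes, 8.21% also had no overlap between the strains. On the slides that held both strains, Tef was lower in GK by a log2 difference of -0.70, -0.63 and -0.26. The other gene with an unadjusted p under 0.05 was Npas2, whose probe was not above background in adipose tissue of either strain. The interval for Arntl ran from -0.29 to 1.54, for Cry1 from -0.34 to 0.92, for Per1 from -1.31 to 0.78, for Per2 from -1.43 to 1.09 and for Dbp from -0.29 to 0.69. These intervals do not show that the strains are alike, and that of Per2 leaves room for a fold change above 2 either way. All 95% intervals here are somewhat wider than those that would match the limma p-values.

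In liver, 0 of the 10 genes passed with all arrays (0.679% of all probes passed) and 0 without GK liver replicate 2 (1.21% of all probes passed). At an unadjusted p under 0.05, the counts were 0 of 10 in both fits, against 12.0% and 13.0% of all probes. The largest differences were those of Dbp and Arntl. Dbp averaged 4.94 ± 1.65 in GK and 6.20 ± 0.28 in BN livers (SD, n = 3 and 5), a log2 difference of -1.26 (standard error 0.62, adjusted p = 0.454 by limma). Without GK liver replicate 2 it was -1.61 (standard error 0.70, adjusted p = 0.386), and the difference rests on GK liver replicate 1, without which it was -0.32 (adjusted p = 0.666). Arntl averaged 7.04 ± 0.38 in GK and 5.98 ± 1.29 in BN livers, a log2 difference of 1.06 (standard error 0.68, adjusted p = 0.549), or 1.23 without GK liver replicate 2 (standard error 0.81, adjusted p = 0.553). Without BN liver replicate 1, where Arntl was not above background, it was 0.58 (adjusted p = 0.672). The slides that held both strains gave 0.16 for Arntl with GK liver replicate 2 and -0.46 with GK liver replicate 3. The first pair holds the array with the kidney marker signal, and the direction of Arntl was not that of the pooled value on both. Per1 differed by -0.47 with all arrays and by -0.16 without GK liver replicate 2 (adjusted p = 0.779 and 0.942), and Per2 by 0.49 and 0.56 (adjusted p = 0.557 and 0.549). Cry1 differed by 0.23 with all arrays and by 0.75 without GK liver replicate 2 (adjusted p = 0.851 and 0.412). Tef was again lower in GK livers in the mean, 6.30 ± 0.14 against 6.67 ± 0.29, with a log2 difference of -0.37 (standard error 0.25, adjusted p = 0.569), or -0.34 without GK liver replicate 2 (standard error 0.27, adjusted p = 0.627), and overlapping strains. On the slides that held both strains the Tef difference was -0.23 with GK liver replicate 2 and 0.20 with GK liver replicate 3. With all arrays the 95% interval ran from -0.60 to 2.72 for Arntl, from -2.78 to 0.26 for Dbp and from -2.01 to 1.07 for Per1. It ran from -0.30 to 1.28 for Per2, from -0.84 to 1.30 for Cry1 and from -0.99 to 0.25 for Tef. The liver intervals do not show that the strains are alike either.

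Whether the strain difference itself differed between tissues was tested as an interaction, liver minus adipose tissue. By limma, 0 of the 10 genes passed with all arrays and 0 without GK liver replicate 2, where 1.04% and 1.86% of all probes did. Dbp had the smallest p of the 10, with an interaction of -1.47 (standard error 0.65, adjusted p = 0.366) and of -1.82 without GK liver replicate 2 (standard error 0.67, adjusted p = 0.230). Without GK liver replicate 1, where Dbp was at background, it was -0.53 (adjusted p = 0.508), and with slide as a fixed block -0.15 (adjusted p = 0.931). The liver slides that held both strains include that of GK liver replicate 2.

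**Figure D2:**
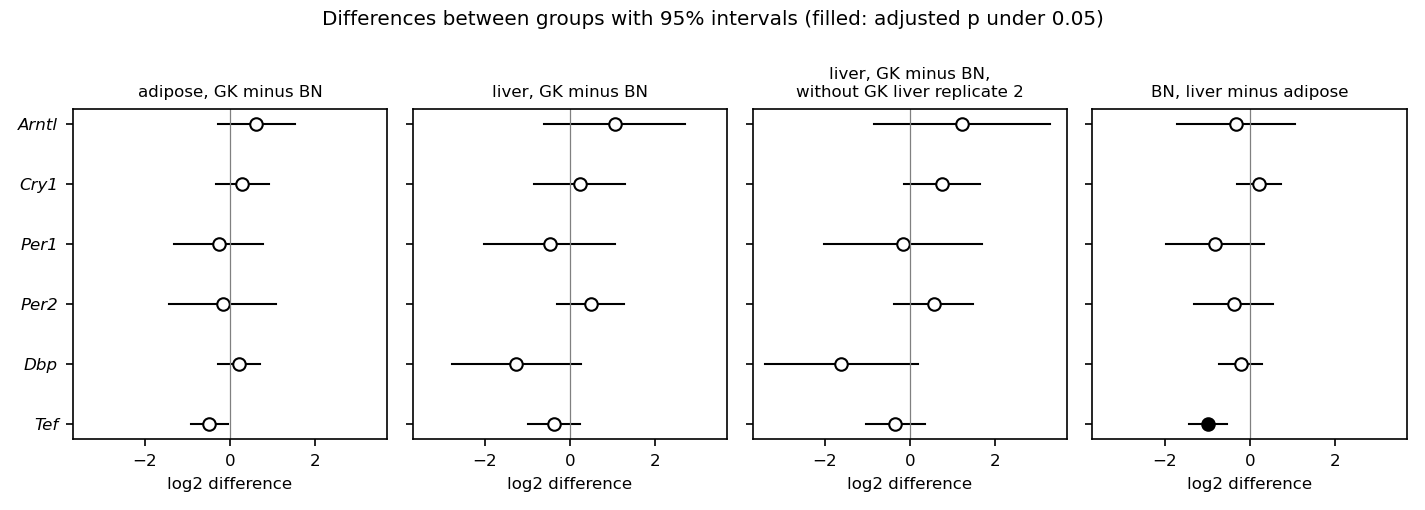
Log2 difference between groups (points) with 95% intervals (lines) for the 6 measured clock genes; filled points have an adjusted p under 0.05. In the 3 strain panels every point is open, and Tef in BN liver against BN adipose tissue, at -0.98, is the only filled point. That panel is from the fit without the rat as a block, and with the block Per1 passed too.

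Liver was set against adipose tissue in the 5 BN rats, where both tissues came from the same animals. The main fit did not pair the 2 tissues of a rat. Tef was lower in liver, at 6.67 ± 0.29, than in adipose tissue, at 7.65 ± 0.28 (SD, n = 5 each), a log2 difference of -0.98 (standard error 0.20, 95% interval -1.43 to -0.53) or a fold of 1.97, with an adjusted p of 0.00169 by limma and no overlap between the tissues. Of all probes 41.3% passed and 34.4% had no overlap, so a difference of this kind is common here. Per3 and Npas2 passed as well, and neither probe was above background in BN liver or BN adipose tissue, so no fold is given for them. With the rat as a replicate block, Per1 passed in place of Npas2, at -0.82 (standard error 0.24, adjusted p = 0.0311), against an adjusted p of 0.228 without the block. Its 5 BN rats had 7.53 to 10.57 in liver, against 9.08 to 10.63 in adipose tissue. Arntl (-0.32), Per2 (-0.38), Dbp (-0.21) and Cry1 (0.21) did not pass, with adjusted p of 0.721, 0.494, 0.477 and 0.488. No slide held both tissues, so slide and tissue cannot be told apart.

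Whether a rat with a high value in liver also had a high value in adipose tissue was examined over the 8 rats with both tissues. Each value was taken as the deviation from the mean of its strain and tissue, and exact permutation tests within strain were two-sided. The smallest p they can give is 0.00139 for 8 rats and 0.00417 for the 7 rats left without the animal of GK liver replicate 2. Per1 had a Pearson r of 0.84 over 8 rats (exact p = 0.00972) and a Spearman rho of 0.95 (exact p = 0.00139). Over 7 rats r was 0.97 (exact p = 0.00417) and rho 0.93 (exact p = 0.00833). Deviations had the same sign in both tissues in 7 of 8 rats. Leaving out the 2 rats farthest from the median in adipose tissue, r was 0.92 over 6 rats. It was 0.82 over 5 rats when the animal of GK liver replicate 2 was also left out. The exception in sign was the GK rat of liver replicate 1, with 0.46 in adipose tissue and -0.17 in liver. Without the animal of GK liver replicate 2 the GK means move, and this rat had -0.11 and -0.48. All 7 rats then had the same sign in both tissues. The 2 GK rats left are equal and opposite around their mean, so they do not count separately there.

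Arntl had an r of 0.87 over 8 rats (exact p = 0.0347) and a rho of 0.83 (exact p = 0.0722). Over 7 rats r was 0.93 (exact p = 0.00833) and rho 0.89 (exact p = 0.05). Without the 2 rats farthest from the median in adipose tissue, r fell to 0.54 over 6 rats. With the rat of GK liver replicate 2 left out as well, it was 0.78 over 5 rats. The size of the Arntl relation thus depends on the rats kept. The sign was the same in both tissues in 5 of 8 rats, and in 4 of 7 without the rat of GK liver replicate 2. With the deposited log2 values r was 0.82 (exact p = 0.0542), and without any 1 of the 5 BN rats the exact p for Arntl lay between 0.0833 and 0.194. For Per1 the 5 BN rats stood in the same order in liver and in adipose tissue, as they did for 0.759% of the 5929 probes above background on all 10 BN arrays. For Arntl, BN replicates 1 and 5 held the low values in both tissues, and 3 of those 4 values were not above background, so their order is not given. For Per1 the order, from low to high, was 2, 4, 3, 1 and 5, where replicates 3 and 4 had liver values of 8.94 each, closer than the bead error.

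**Figure D3:**
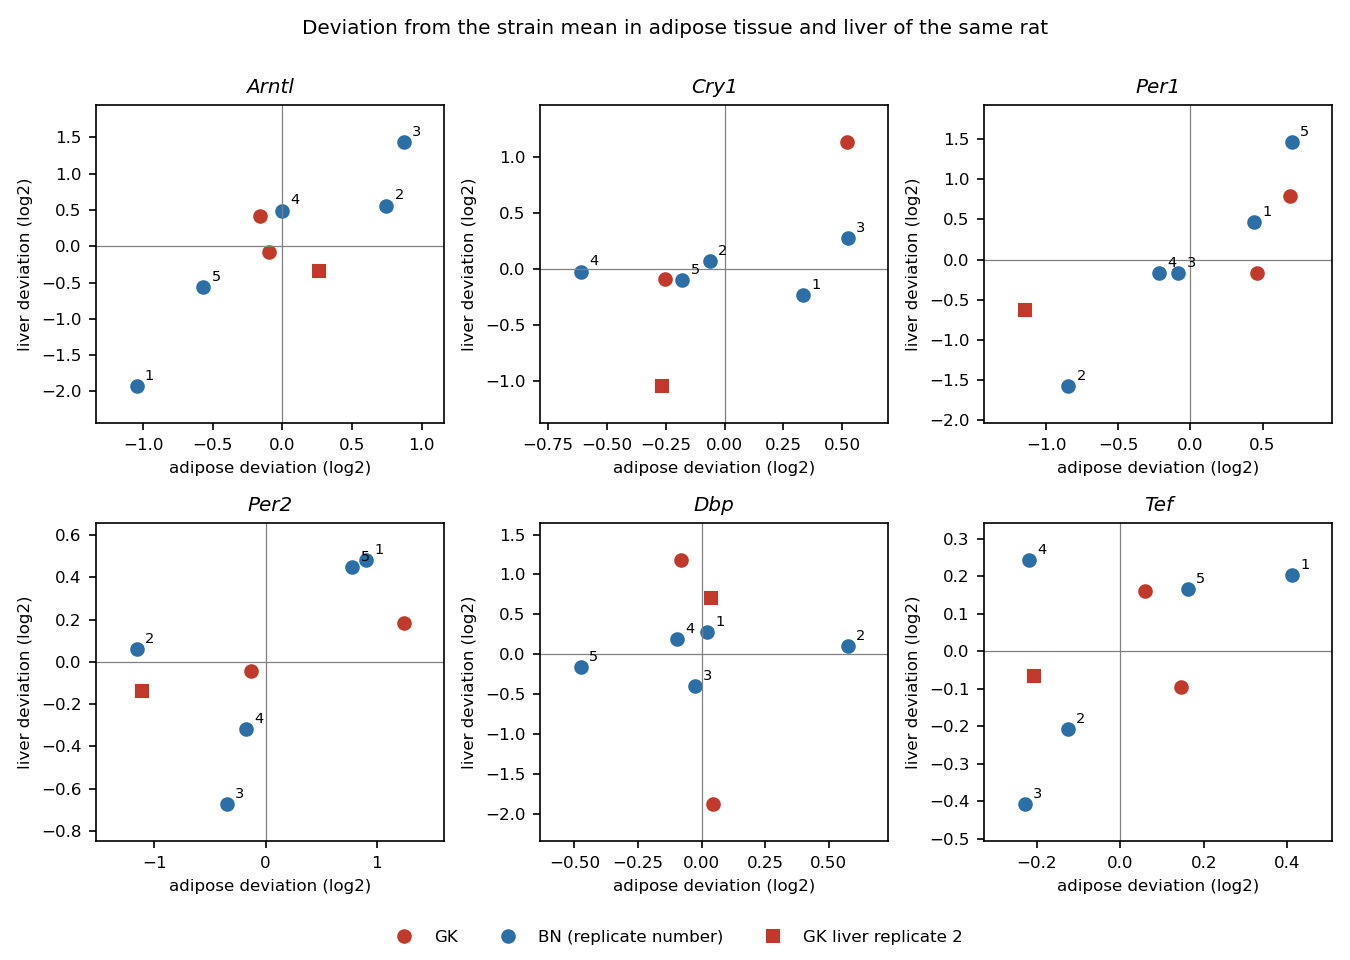
Deviation of each rat from its strain mean (log2) in adipose tissue (horizontal) and liver (vertical) for the 6 measured clock genes; BN points (blue) carry the replicate number, GK points are red, and the square is the rat of GK liver replicate 2. Arntl and Per1 points run from lower left to upper right (r of 0.87 and 0.84 over 8 rats), and Dbp points do not (r of -0.01).

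Among the other measured members, r over 8 rats was 0.57 for Per2 (exact p = 0.125), 0.57 for Cry1 (exact p = 0.175), 0.49 for Tef (exact p = 0.344) and -0.01 for Dbp (exact p = 0.931). Over 7 rats these were 0.59, 0.58, 0.48 and -0.03, none with an exact p under 0.05. Cry2, which was not above background on any array, had an r of 0.78 over 8 rats (exact p = 0.0403); its values are given for the count only. In all, 3 of the 10 members had an exact p under 0.05 with r above 0, over 8 as over 7 rats, but only Per1 among them was above background on every array of these rats. Of the 4 members above background on all of these arrays 1 had such a p, over 8 as over 7 rats; among all probes of that kind the share was 2.36% of 5604 over 8 rats and 2.33% of 5700 over 7 rats. The median r of the 4 members was 0.57 and 0.58, and that of the probes 0.02 and 0.10. Adjusted over all probes tested, no member passed, with the smallest adjusted p at 0.951 for Arntl and Per1 over 7 rats. All 8 rats had their liver and adipose arrays at the same position of their slides, so rat and slide position cannot be told apart.

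Within a tissue, genes of the opposite arms of the loop were compared on the same arrays. In adipose tissue (9 arrays, deviations from the strain mean), Per1 and Per2 varied together, with r = 0.88 (exact p = 0.00382) and rho = 0.83 (exact p = 0.0142). Arntl ran against Per2, with r = -0.72 (exact p = 0.0257) and rho = -0.78 (exact p = 0.0250), and against Tef, with r = -0.77 (exact p = 0.0462) and rho = -0.73 (exact p = 0.0528). Per1 and Tef varied together (r = 0.74, exact p = 0.0299; rho = 0.78), while Per1 and Dbp did not run the same way (r = -0.63, exact p = 0.0285; rho = -0.70, exact p = 0.0611). After leaving out the 2 arrays farthest from the median of the first gene, these values were 0.75, -0.75, -0.47, 0.79 and -0.64 over 7 arrays.

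In liver, Arntl and Per2 had r = -0.84 over 8 arrays (exact p = 0.0528) and r = -0.89 without GK liver replicate 2 (exact p = 0.0417; rho = -0.89, exact p = 0.05). Leaving out the 2 arrays farthest from the Arntl median, r was -0.64 over 6 arrays and, without GK liver replicate 2, -0.85 over 5. Arntl was not above background in BN liver replicates 1 and 5. Per1 and Per2 had r = 0.48 (exact p = 0.353) in liver and 0.45 without GK liver replicate 2 (exact p = 0.408). Of the 45 pairs of members in each tissue, 5 in adipose tissue and 1 in liver had an exact p under 0.05, and without GK liver replicate 2 the liver count was 3. The liver pair was Per2 and Per3, whose Per3 signal was not above background. With Benjamini-Hochberg adjustment over the 90 pairs of both tissues, 0 passed. The share among pairs of all probes was not computed, so these counts cannot be read as particular to clock genes.

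**Figure D4:**
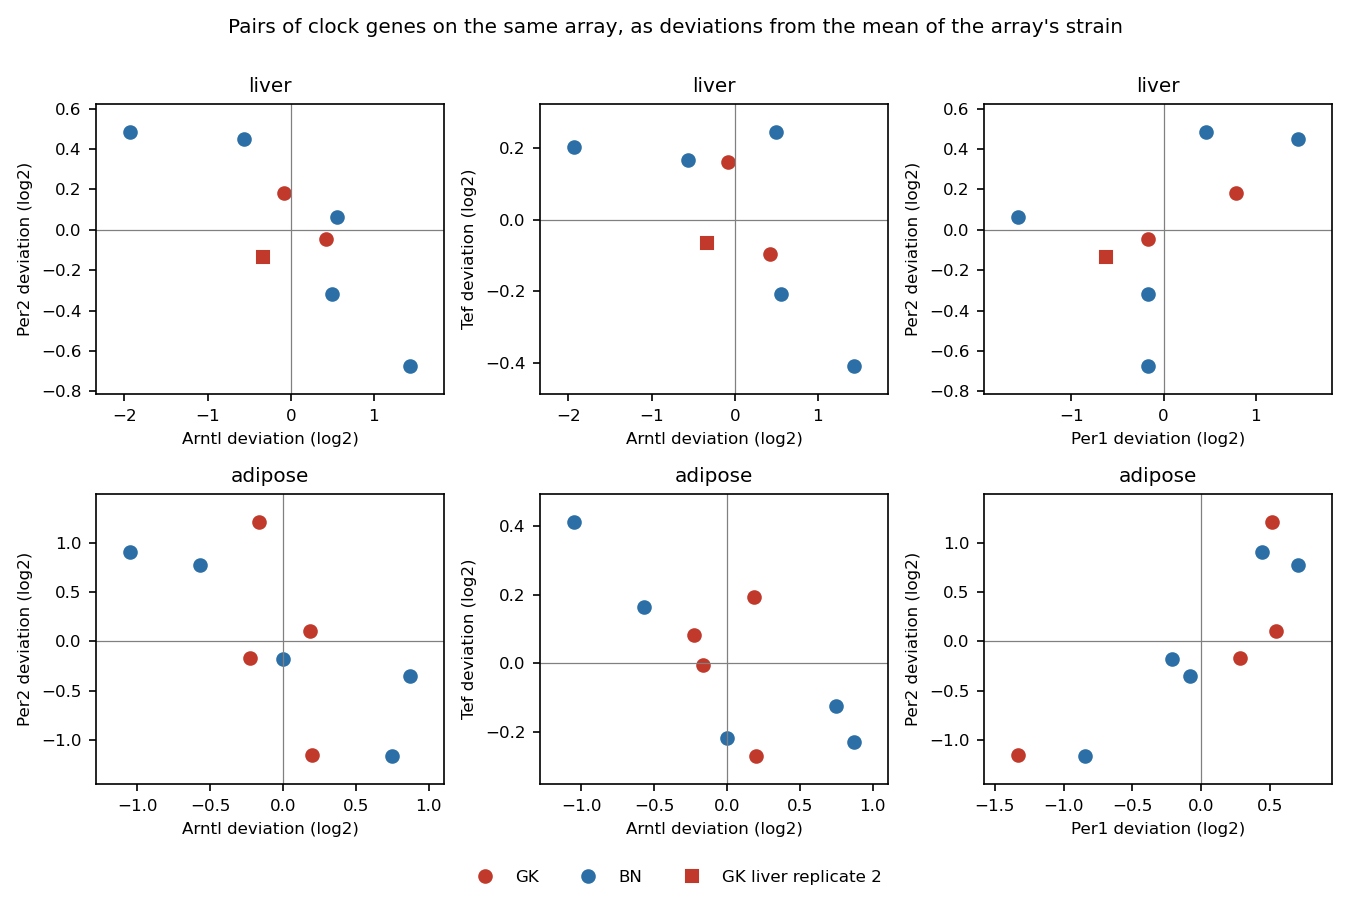
Deviations (log2) of pairs of clock genes on the same array from the mean of the array's strain, in liver (top) and adipose tissue (bottom), with GK in red, BN in blue and GK liver replicate 2 as a square. Per2 runs down as Arntl runs up in both tissues (r of -0.84 in liver and -0.72 in adipose tissue), and Per1 and Per2 run up together in adipose tissue (r of 0.88). Arntl was not above background in BN liver replicates 1 and 5 and BN adipose replicate 1.

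The arms of the loop were also summarised per array as the deviation of Arntl minus the mean deviation of Per1, Per2, Dbp and Tef, those of the Per genes, Dbp and Tef that were above background on at least 50% of the arrays of each tissue. The Cry genes were not part of this mean. In liver this contrast was 0.97, -0.31 and -0.66 in GK replicates 1 to 3, against -2.29, 0.97, 1.85, 0.51 and -1.04 in BN replicates 1 to 5. In adipose tissue it was 0.01, -0.30, 0.87 and -0.58 in GK replicates 1 to 4, against -1.49, 1.14, 1.05, 0.17 and -0.86 in BN replicates 1 to 5. BN rats 1 and 5 were below 0 in both tissues and BN rats 2, 3 and 4 above 0 in both. Arntl was not above background in either tissue of BN rat 1 or in the liver of BN rat 5. The GK rat of liver replicate 1 was above 0 in liver and below 0 in adipose tissue, the rat of liver replicate 2 was below and above, and the rat of liver replicate 3 below 0 in both. Without GK liver replicate 2 the other GK livers stood at 0.81 and -0.81. With only these arrays left in the group, the values are equal and opposite by construction, so their opposed signs carry no information. With Cry1 added to the mean, an alternative chosen after seeing the data, all 17 values kept their sign. Cry1 was a small part of that mean and Arntl kept its weight, so this is a weak check.

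Beyond the 10 members, 23 regulators of the loop were considered, of which 13 had a probe and 10 were above background on the 16 arrays left without GK liver replicate 2. Between strains 0 of 13 passed in adipose tissue, in liver or in liver without that array. Their median log2 difference was 0.00 in adipose tissue, -0.20 in liver and -0.24 in liver without that array, against 0.02, 0.00 and -0.04 over all probes. Nr1d1, which encodes Rev-erb alpha, the repressor of Arntl, had the smallest p in adipose tissue, at -0.55 (standard error 0.24, adjusted p = 0.340). In liver the smallest p were those of Bhlhe40, a repressor that competes for E-boxes, at 1.56 (standard error 0.43, adjusted p = 0.211), and Nr1d1, at -0.95 (standard error 0.30, adjusted p = 0.277). Without GK liver replicate 2 their order turned, with Nr1d1 at -1.05 (adjusted p = 0.226) and Bhlhe40 at 1.39 (adjusted p = 0.295). Between BN liver and BN adipose tissue 2 were higher and 3 lower in liver, 38.5% of the 13, near the 41.3% of all probes that passed. Nfil3, a repressor at D-boxes, was higher in liver by 2.31, and Hlf, a relative of Dbp and Tef, was lower, at -1.99, with Csnk2a1, a kinase subunit, at -0.98 and Nr1d1 at -0.85.

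Of 20 output genes 19 had a probe. In adipose tissue 0 of 19 passed between strains; Gys2, the liver glycogen synthase, had the smallest p, at -1.16 (standard error 0.29, adjusted p = 0.0825). In liver 1 fell, Mt1, which encodes the metal-binding protein metallothionein 1, at -2.33 (standard error 0.36, adjusted p = 0.0286), or -2.78 without GK liver replicate 2 (standard error 0.26, adjusted p = 0.00323). Without that array Dio1, the deiodinase that activates thyroid hormone, rose by 1.50 (standard error 0.26, adjusted p = 0.0398), against 1.35 with it (adjusted p = 0.0674). The list's median was -0.14 in adipose tissue and -0.19 in liver, or 0.00 in liver without GK liver replicate 2. Between the BN tissues 10 were higher and 2 lower in liver, where 41.3% of all probes passed; 3 of the 12, Tfrc, Ppara and Ppargc1a, were not above background throughout either BN group. Among the 12 were Mt1 (3.74) and Pck1 (1.03), the gluconeogenic carboxykinase, which were higher, and Pparg (-5.22), the adipocyte nuclear receptor, and Wee1 (-0.76), a cell cycle kinase, which were lower. Several of these output genes are also known as liver or fat genes.

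Per1 is also switched on by glucocorticoids, so 8 genes of that response were followed, Per1 among them, and all 8 had a probe. Between strains 0 of 8 passed in either tissue; the smallest p in adipose tissue were those of Dusp1 (0.74, adjusted p = 0.296) and Tat (not above background there). Between the BN tissues 1 was higher and 2 lower in liver, a share near the 41.3% of all probes, the lower ones being Fkbp5 (-2.05), a chaperone of the glucocorticoid receptor, and Tsc22d3 (-1.38), the glucocorticoid-induced leucine zipper.

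How these genes moved with Arntl and Per1 from rat to rat is given as a description over the 16 arrays, with each value centred on its group; the arrays of a rat's liver and adipose tissue are not independent, and all share the scanner and chip type. Tsc22d3 had an r of 0.92 to Per1 and -0.45 to Arntl, Lpin1 (a phosphatidate phosphatase) 0.83 and -0.52, Bhlhe40 0.78 and -0.82, Klf9 (a glucocorticoid and clock linked factor) 0.73 and -0.55, Fkbp5 0.71 and -0.49, and Nampt (the NAD salvage enzyme) 0.59 and -0.68. Over the 5653 probes above background on these arrays, the r to Per1 had a median of 0.15 and a 95th percentile of 0.58, and the r to Arntl a median of 0.04 and a 5th percentile of -0.42. Of these probes, 70.4% lay above 0 to Per1 and 44.2% below 0 to Arntl. Arntl itself was not above background on BN liver replicates 1 and 5 and BN adipose replicate 1, and r without these arrays was not computed. The 5 glucocorticoid genes above background other than Per1 all lay above 0 to Per1 and below 0 to Arntl, the lowest to Per1 being Sgk1 at 0.10. Of 8 such output genes, all 8 lay above 0 to Per1 and 7 below 0 to Arntl. Of the 10 loop regulators, 7 lay above 0 to Per1 and 5 below 0 to Arntl, and Nr1d1 had -0.08 to Per1 and -0.05 to Arntl.

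Between liver and adipose tissue of the same 7 rats, r lay above 0 for 4 of these 5 glucocorticoid genes, 6 of the 8 output genes and 5 of the 10 loop regulators, against 58.4% of the 5653 probes. The median r was 0.87, 0.74 and -0.05 in these lists and 0.10 over the probes. Among the glucocorticoid genes r ran from -0.24 for Sgk1 to 1.00 for Dusp1, an early phosphatase gene. Among output genes it ran from -0.46 for Pparg to 0.88 for Gys2, and among loop regulators from -0.60 for Hlf to 0.84 for Gsk3b.

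**Figure D5:**
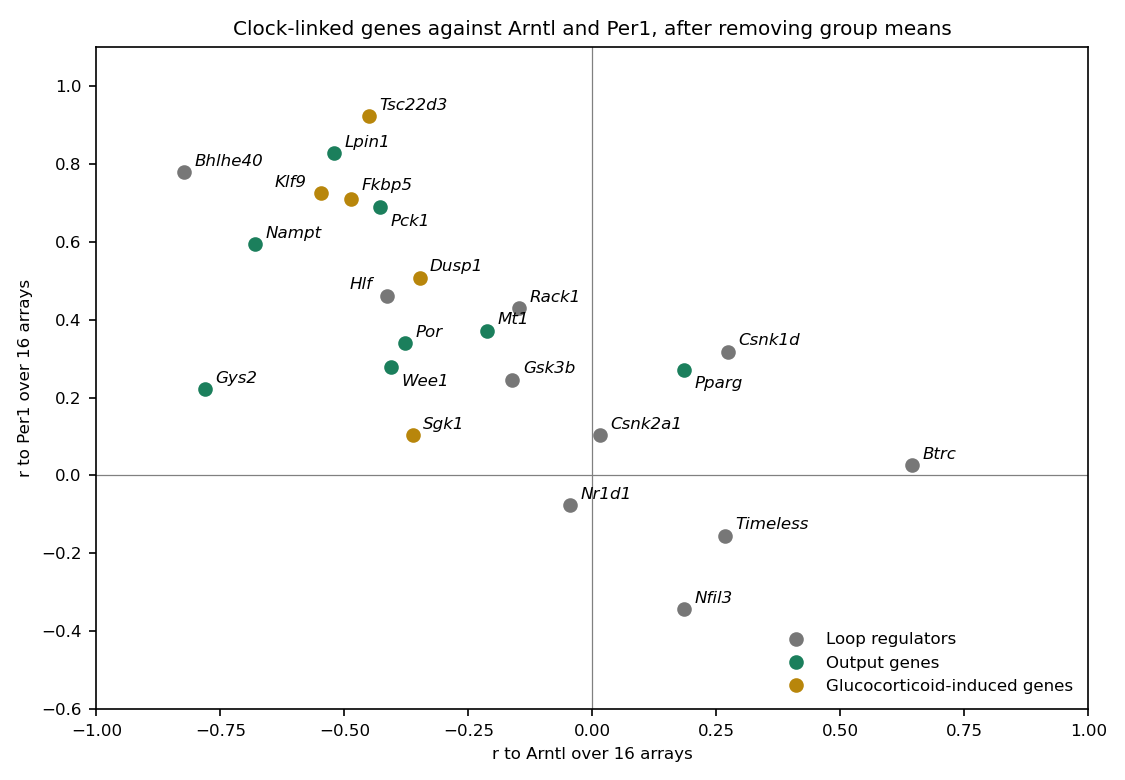
Pearson r of each loop regulator (grey), output gene (green) and glucocorticoid-induced gene (gold) above background on 16 arrays to Arntl (horizontal) and to Per1 (vertical), after removing the mean of each strain and tissue. The green and gold points lie mostly at upper left, with Tsc22d3 at -0.45 and 0.92, and the grey points are spread on both sides of 0. Arntl was not above background on BN liver replicates 1 and 5 and BN adipose replicate 1.

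The genes whose pattern was most like Arntl over the same 16 arrays, among 4537 named probes above background on all of them, were Fam136a (r = 0.89), Thra, the thyroid hormone receptor alpha (0.86), Snai1 (0.82), Nudt6 (0.82) and Cyp2b15 (0.80). The lowest were Sik1, a salt-inducible kinase (-0.90), Coq10b (-0.88) and Gpr146 (-0.87). Arntl itself was not above background, and low, on BN liver replicates 1 and 5 and BN adipose replicate 1. How far the r to Arntl rest on these arrays was not tested. Within the members, r to Arntl was -0.71 for Tef, -0.65 for Per2, -0.53 for Per1, -0.14 for Dbp and 0.16 for Cry1. The nearest to Dbp were Slc43a1 (0.91), Knop1 (0.90), Sprr1a (0.89), Rgs14 (0.88) and Csnk1g2 (0.87), and the lowest were Asgr2 (-0.84), Smc2 (-0.81) and Zfr (-0.81). Without GK liver replicate 1, where Dbp was at background (an alternative chosen after seeing the data), r to Dbp over 15 arrays was 0.81 for Slc43a1, which stayed among the 5 highest, 0.64 for Csnk1g2, 0.47 for Rgs14, 0.20 for Knop1 and -0.05 for Sprr1a. In adipose tissue alone it was 0.91 for Slc43a1 and 0.92 for Csnk1g2, and 0.07 for Sprr1a and 0.33 for Knop1.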

How the data were processed

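Total RNA (300 ng) was amplified with the TotalPrep kit and hybridised to the arrays. The deposited intensity values are bead-averaged probe signals without normalization, and the deposited detection score says how surely a probe exceeds the negative controls. The authors made the deposited log2 values with vsn, tissue by tissue. Other columns used, deposited with the signals, are bead counts and bead standard deviations.

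The mean of the negative controls was subtracted from each intensity and 1 vsn model was fitted to all 17 arrays (own code, Python 3.11.15, numpy 2.4.6, scipy 1.17.1, pandas 2.3.3, matplotlib 3.10.9). Fitted per tissue, its median absolute distance to the deposited values was 0.0208 (largest 0.117, log2). It was tested on simulated data, as were the limma and permutation steps. Signals are bead averages, and the number of arrays limits the precision; a median of 38 to 43 beads lay behind a probe. Of 22226 probes, 13650 had 1 gene symbol.

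Groups were compared within tissue by limma 3.58.1 (R 4.3.3, statmod 1.5.0) with Benjamini-Hochberg adjustment over all probes at 0.05. BN liver and BN adipose tissue were compared in the same way, without the rat as a block in the main fit. The interaction used the rat as a random block. Correlations used exact permutations within strain. Replicates of a group are different rats.

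Equal replicate numbers mark the same rat only between BN liver and BN adipose tissue, which come from the same animals by their names; the correlation of same-numbered deviations there was -0.26 to 0.25 over 5929 probes. Between strains numbers pair nothing. The members, lists and tests were chosen with earlier results of these data known. All members are described; of a list, up to 4 genes past the threshold are named, or the 2 with the smallest p. Nearest patterns are the 5 highest and 3 lowest r. Lists of loop regulators, output genes, glucocorticoid-induced genes and markers of hepatocytes, adipocytes, kidney, skeletal muscle, macrophages and B cells were matched by symbol, and a listed gene without a probe of 1 symbol was not analysed here. Alternatives were other normalizations, a filter on dim probes, slide and replicate blocks, variance settings and leaving out arrays. Promoter windows and gene names come from RefSeq (GRCr8).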

Additional observations from a re-analysis of the deposited data

Results flagged for a closer look

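Per1 in GK adipose replicate 3 was 8.33 (log2), far from the other 3 GK adipose arrays at 9.94 to 10.20. The gap to the nearest of them passed the critical value of Dixon's test for 4 samples (0.829). This was 1 of 18 groups of 4 or 5 arrays examined for the 6 measured members, and chance alone passes about 1 in 20 such groups. The same rat had the lowest Per1 of the GK livers, 8.02 in replicate 2, the array with the kidney marker signal.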

How the results depend on the processing

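No clock gene passed between strains in adipose tissue, in liver or in the interaction under any alternative run, including leaving out each array and, chosen after seeing the data, the deposited, quantile and normexp values without GK liver replicate 2. The replicate block left these counts at 0. Tef kept its direction in adipose tissue under 19 alternatives (-0.55 to -0.16) and its direction and call in BN liver against BN adipose tissue under 16 (-1.23 to -0.30). In that tissue comparison the replicate block left the count at 3, with Per1 in place of Npas2, a filter on dim probes left 1, and leaving out 1 array left 1 to 3, the lowest without BN liver replicate 4. With slide as a fixed block, which uses the same-slide pairs alone, 4 differences turned, to 0.086 for Per2 and -0.017 for Dbp in adipose tissue and to -0.15 for Arntl and 0.49 for Per1 in liver, where Arntl was 1.06 and Per1 -0.47 without the block; the replicate block turned Per2 in adipose tissue to 0.025, and normexp values turned Cry1 between the BN tissues to -0.020. None of these passed before or after, and the cause was not tested. The same-slide liver pairs include GK liver replicate 2. Leaving out 1 array gave a range of -0.48 to 0.18 for Per1 and -0.57 to 0.21 for Per2 in adipose tissue (the highest without GK adipose replicate 3), -0.34 to 0.75 for Cry1 in liver (the lowest without GK liver replicate 3) and -0.68 to 0.17 for Arntl between the BN tissues (the highest without BN liver replicate 1). Of the 3 members past an exact p of 0.05 between tissues, 1 remained past it with 1 vsn model per tissue and 1 with quantile values, and 1 to 3 when 1 rat was left out. Per1 stayed past it under all 11 alternatives (r 0.79 to 0.97). Arntl stayed past it without the rat of GK liver replicate 1, 2 or 3 and missed it under the other 8, with r of 0.73 to 0.93. The r of Dbp turned to 0.022 with 1 vsn model per tissue, 0.021 with the deposited values and 0.11 with quantile values, and ran from -0.096 to 0.21 when 1 rat was left out (0.0010 without BN replicate 4). Over 12 alternatives in adipose tissue, Arntl and Per2 kept r of -0.81 to -0.62 and Per1 and Per2 of 0.84 to 0.91. Averaging the probes of a gene was not run, since each member has 1 probe, and a random slide block could not be fitted to the BN tissue comparison, where no slide held both tissues. Signals near background limit Arntl, Dbp and Tef, which are dim, more than Per1 and Per2.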
